A study of Mus musculus with 2239 samples.

Results

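The 38 genes described here encode protein folding chaperones and their helpers. They were listed by name and taken as rows of 1 count table of single regulatory T cells (Tregs), which holds 23725 gene rows. All 38 were in the table, and 35 had at least 20 UMIs over the kept cells. A UMI, or unique molecular identifier, marks 1 captured RNA molecule. The members were grouped by where their proteins work. The 20 cytosolic members comprise 7 HSP90 and HSP70 genes, 5 J-domain genes and 8 co-chaperone genes. The other groups are 8 subunits of the cytosolic chaperonin, 3 mitochondrial members and 7 members of the endoplasmic reticulum (ER).

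The cells came from male B6 mice aged 7 months that carry a Foxp3 reporter. Live cells were sorted as DAPI-, TCRb+, CD4+ and GFP+, encapsulated with the inDrops droplet protocol and sequenced as 1 library. The tissue label of every cell is spleen, while the sample type label also names colon and a control state. How many mice gave the cells was not given in the sources used here. GFP reports Foxp3, the defining transcription factor of Tregs, so the sort itself selects on that gene. No treatment, genotype or second library is contrasted here, and the comparisons below are between cells of this library, set apart by the UMIs of a few genes.

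Chaperones bind unfolded or partly folded proteins, keep them from clumping and help them reach their working shape. In the cytosol HSP70 and its J-domain partners take up new chains, HSP90 and its co-chaperones finish clients such as kinases and steroid receptors, and the ring-shaped chaperonin TRiC encloses actin, tubulin and other proteins. Mitochondria and the ER hold their own sets, with protein disulphide isomerases and the lectins calreticulin and calnexin in the ER. Many chaperone genes respond to the heat shock factor HSF1 in the cytosol and mitochondria, or to the unfolded protein response in the ER.

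Short DNA elements are known for both responses. Their sites are shown because, among the members, the ER element was found in windows of ER genes alone. RefSeq promoter windows on GRCm38.p6, each with 250 bases before and 50 bases after a transcription start, were found for 32 of the 38 members. No window was matched for Hspa8, Hsp90aa1, Hsp90ab1, Hspa9, St13 and Cct4. A pair of facing heat shock units was searched as GAANNTTC or TTCNNGAA on both strands. It was present in windows of 12 of the 32 members and of 16.97% of all 27025 genes with a window. A run of 3 units, searched as the same pair followed by a further unit, was present in windows of 4 members, Dnajb6, Hspd1, Hspe1 and Hsph1, and of 0.662% of all genes. In both sites below, capitals mark the run of units, 5′ to 3′. The Hspe1 site lies before the start of that gene and inside the annotated gene Hspd1, which is read in the other direction, and it falls in windows of both. Both are nuclear genes for mitochondrial chaperonin subunits. The run of Hsph1 is not shown.
Hspe1, chr1:55088054-55088081, forward strand: gtccgTTCTAGAACCTTCCGGAAggccc
Dnajb6, chr5:29735847-29735869, forward strand: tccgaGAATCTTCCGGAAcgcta

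The ER stress element was searched as CCAAT and CCACG separated by 9 bases, on both strands. It was present in windows of 5 of the 32 members, all of them ER genes, and of 0.137% of all genes. None of the 16 cytosolic, 7 chaperonin and 2 mitochondrial members with a window held it. The heat shock pair was in windows of 7 of the 16 cytosolic, 3 of the 7 chaperonin and both mitochondrial members, and of 0 of the 7 ER members. Hsp90b1 holds 2 copies, and capitals mark the element in each site.
Hspa5, chr2:34772020-34772048, forward strand: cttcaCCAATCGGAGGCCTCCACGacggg
Hsp90b1, chr10:86705633-86705661, reverse strand: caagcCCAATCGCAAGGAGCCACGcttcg
Hsp90b1, chr10:86705528-86705556, reverse strand: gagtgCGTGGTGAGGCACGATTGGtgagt
Calr, chr8:84847070-84847098, reverse strand: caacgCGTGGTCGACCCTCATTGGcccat
Canx, chr11:50325795-50325823, reverse strand: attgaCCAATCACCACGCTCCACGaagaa
Pdia6, chr12:17266486-17266514, forward strand: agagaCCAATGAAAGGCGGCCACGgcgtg

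The 2 classical heat-inducible HSP70 genes, Hspa1a and Hspa1b, have nearly the same promoter: 3 of the 250 bases before the start differ. The window of Hspa1a is printed because this gene was almost undetected in these cells. Capitals mark its 1 heat shock pair. A match describes the letters only, and binding of a factor was not measured.
Hspa1a, chr17:34972157-34972406, reverse strand: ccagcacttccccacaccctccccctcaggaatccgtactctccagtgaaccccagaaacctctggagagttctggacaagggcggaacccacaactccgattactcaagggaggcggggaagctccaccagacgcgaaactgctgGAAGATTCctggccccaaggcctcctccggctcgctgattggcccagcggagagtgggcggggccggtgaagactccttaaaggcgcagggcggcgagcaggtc

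Of the 2239 cells in the table, 2055 had at least 500 UMIs and were kept. Kept cells had 500 to 4329 UMIs with a median of 974, and 2156277 UMIs in all. Ribosomal protein genes took 35.4% of them. Levels are UMIs pooled over cells and scaled to a total of 1000000 (CPM). The protocol counts 1 tag per molecule at its poly(A) end, so levels were not divided by gene length. With 1 library there is no replicate: intervals are exact, at 95%, and cover counting error only. The Treg markers Foxp3, Ikzf2, Il2ra, Izumo1r, Tnfrsf18 and Ctla4 were each detected. A set of 129 cells, 6.28%, had at least 2 UMIs of B cell and myeloid markers and stayed in the values below. RNA free in the droplets was not measured, and no cell type that lacks these housekeeping genes was at hand as a blank.

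The 38 members together took 21304 UMIs, 0.988% of all UMIs. Per kept cell they gave a lowest value of 0, a median of 9 and a highest value of 111 UMIs, and 3 cells had none. Cytosolic members held 66.3% of the chaperone UMIs. Their pooled level was 6553 CPM (6445–6662), against 1352 CPM (1303–1402) for the chaperonin, 1243 CPM (1196–1291) for the ER members and 732 CPM (697–769) for the 3 mitochondrial members. Intervals of the 4 compartments did not overlap.

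**Figure D1:**
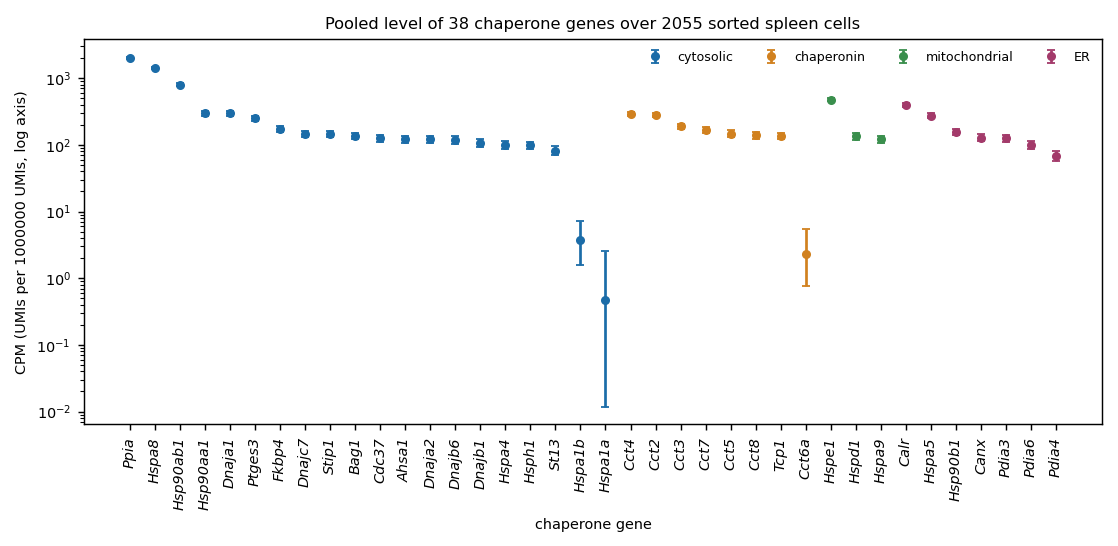
Pooled level of each chaperone gene in 2055 cells, in CPM on a log axis, with exact 95% Poisson intervals as bars and colours for the compartments. Ppia and Hspa8 stand highest, and Hspa1a, Hspa1b and Cct6a stand far below all other members.

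Among cytosolic members, Ppia led with 2019 CPM (1959–2080). It encodes cyclophilin A, a prolyl isomerase, and 81.4% of cells had a UMI of it, or 60.4% after every cell was thinned to 500 UMIs. Hspa8, the constitutive HSP70, followed with 1422 CPM (1372–1473) and a highest value of 23 UMIs in 1 cell. The HSP90 pair was unequal: Hsp90ab1, the constitutive form, stood at 795 CPM (758–834), and Hsp90aa1, the inducible form, at 296 CPM (273–320). Hsp90aa1 and the J-domain gene Dnaja1, at 295 CPM (273–319), did not differ beyond their intervals. The other J-domain genes, Dnajb1, Dnaja2, Dnajb6 and Dnajc7, which hand clients to HSP70, lay between 107 and 146 CPM. Of the HSP90 co-chaperones, Ptges3 (p23) reached 251 CPM, and Fkbp4, Stip1, Cdc37 and Ahsa1 lay between 122 and 172 CPM. Bag1, a nucleotide exchange factor of HSP70, stood at 136 CPM and St13, the HSP70-interacting protein Hip, at 81.6 CPM. Hspa4 and Hsph1, large HSP70 relatives that act as exchange factors, stood at 98.3 and 97.8 CPM with overlapping intervals.

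The heat-inducible HSP70 genes were almost absent. Hspa1a had 1 UMI in all kept cells and Hspa1b had 8 UMIs in 8 cells. Hspa8 had 3066. The J-domain gene Dnajb1, which is also known as heat-inducible, was detected at 107 CPM (93.8–122) in 216 cells.

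Of the 8 chaperonin subunits, 7 lay within a narrow band. Cct4 at 289 CPM (267–312) and Cct2 at 280 CPM (258–303) were highest with overlapping intervals, Cct3 followed at 189 CPM and Cct7 at 169 CPM, and Cct5, Cct8 and Tcp1 lay between 136 and 148 CPM. The eighth subunit, Cct6a, had 5 UMIs, or 2.32 CPM. In the GENCODE annotation used here, Cct6a carries no transcript of protein-coding type; the annotation behind the deposited counts was not given in the sources used here.

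Of the mitochondrial members, Hspe1, the small lid of the mitochondrial chaperonin, had 476 CPM (447–506). Hspd1, its large ring subunit, had 135 CPM (120–151), and Hspa9, the mitochondrial HSP70, had 122 CPM (107–137). Hspd1 and Hspa9 did not differ beyond their intervals. In the ER, Calr (calreticulin) led with 391 CPM (365–418), before Hspa5 (BiP, the ER HSP70) with 274 CPM (252–297) and Hsp90b1 (the ER HSP90) with 156 CPM (140–174). The calcium-binding lectin Canx and the disulphide isomerase Pdia3, which works with both lectins, had 127 CPM each. The isomerases Pdia6 and Pdia4 had 99.7 and 68.6 CPM.

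Some of these levels carry a counting limit. Of the 40-base words in the last 400 bases of the transcript, 78.7% for Hspa8, 66.8% for Hspe1, 52.1% for Ahsa1, 46.0% for Ppia and 12.5% for Hsp90ab1 also occurred in transcripts of other genes, mostly named as pseudogenes or gene models. For these members the share of reads that the authors' counting gave to copies is unknown and the level is uncertain. Cct7 and Tcp1 shared under 1% of words, and no other member shared any.

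Cell-to-cell spread was measured as the mean squared Poisson residual per cell, which is near 1 when cells differ by counting and depth alone. Hsp90aa1 had the highest value of the members, 1.41, before Hspa8 with 1.29, Hsp90ab1 with 1.25 and Ppia with 1.22. The 35 measured members had a median of 1.06, close to the 1.05 of the 3131 genes compared. Spread was higher in abundant genes: the 159 genes with the most UMIs had a median of 1.20 and a 90th percentile of 1.49. Hspa8, Hsp90ab1 and Ppia are among them and lay near that median, while Hsp90aa1 had fewer UMIs. In single cells Hsp90aa1 ranged from 0 to 12 UMIs and was not seen in 1600 cells.

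Cells with at least 3 UMIs of Mif and Ranbp1 together held chaperone RNA at more than 2 times the level of the other cells. Mif encodes a secreted cytokine-like protein and Ranbp1 a regulator of nuclear transport. Both are commonly abundant in growing cells. The class had 22 cells, 1.07% of the kept cells. Chaperones took 2.27% of its UMIs and 0.957% of those of the other 2033 cells. In single cells of the class, the chaperone share ran from 0.853% to 3.03% with a median of 2.29%, and in the other cells from 0% to 3.30% with a median of 0.891%. The ranges overlapped: 15 of the 2033 other cells lay above the class median.

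Depth moved with this class. Its cells had 951 to 3767 UMIs with a median of 2243, against 970 in the other cells, and a fixed minimum of 3 UMIs is met more easily by deep cells. Set beside the 394 other cells of the deepest depth stratum of 5 (1273 UMIs or more), whose median chaperone share was 0.907%, 21 of the 22 cells lay above that median and 19 above the 90th percentile, 1.46%. This does not match depth in full: those 394 cells had a median of 1492.5 UMIs, and 18 of the 22 class cells were in that stratum. When every cell was thinned to 500 UMIs before the class was set, 1 cell was in it, and 7 members passed 1.5-fold. A class set by at least 1 UMI of Ranbp1 alone had 154 cells, and 14 members passed 1.5-fold in it.

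**Figure D2:**
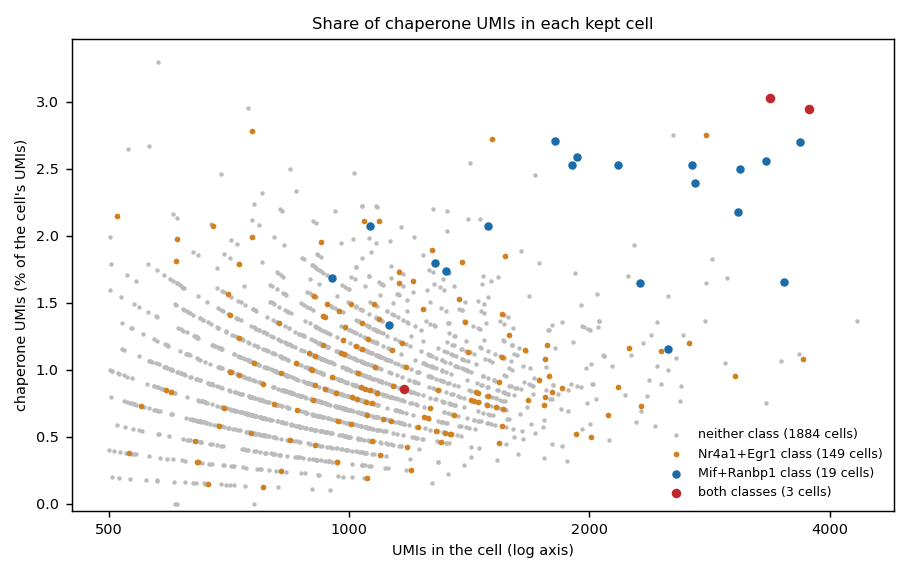
Chaperone UMIs as a percent of each kept cell's UMIs, against the cell's UMIs on a log axis, with 1 point per cell coloured by class. Most of the 22 cells with Mif and Ranbp1 lie to the right and above the mass of other cells, and the lowest of them stands at 0.853%.

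Mitochondrial members differed most. Their summed level was 3085 CPM in the class and 676 CPM in the other cells, a ratio of 4.56 (3.84–5.39). Hspd1 had a ratio of 5.92 (4.05–8.41), Hspa9 4.62 (2.96–6.94) and Hspe1 4.18 (3.34–5.18). Hspd1 was seen in 63.6% of the class cells and 11.2% of the others, with at most 8 UMIs in 1 class cell and 3 in 1 other cell. The chaperonin ratio was 2.43 (2.06–2.86), the cytosolic 2.19 (2.03–2.36) and the ER ratio 2.05 (1.70–2.45). The interval of the mitochondrial ratio lay above those of the other 3 compartments, whose intervals overlapped.

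Of the 35 measured members, 31 were at least 1.5-fold higher in the class and 0 were lower. Over all 7804 genes measured, 29.7% were higher and 15.8% lower by the same rule, and the median log2 ratio was 1.27 for the members and -0.09 for all genes. The rule was applied again to genes that counting limits less. Among those with at least 5 UMIs expected in the class, 28 of 31 members and 308 of 1397 genes were higher.

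Within the cytosolic group the ratios ranged widely. Hsp90aa1 reached 1373 CPM in the class against 270 CPM in other cells, a ratio of 5.08 (3.90–6.53), and Hsph1 had 4.39 (2.62–6.97). Per cell, Hsp90aa1 reached at most 12 UMIs in the class and 10 outside it, and it was detected in 81.8% of class cells and 21.5% of the others. Hsp90ab1 had 2.71 (2.20–3.30) and Hspa8 1.960 (1.64–2.33). Hsp90aa1's interval lay above those of Hsp90ab1 and Hspa8. The HSP90 co-chaperones Fkbp4 with 3.29 (2.14–4.87), Ahsa1 with 3.08 (1.79–4.97) and Ptges3 with 2.98 (2.06–4.18) also lay high. Ptges3 and Ahsa1 reached 7 and 4 UMIs in 1 class cell, against 3 and 2 in any other cell.

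J-domain genes had a summed ratio of 1.61 (1.23–2.08). It lay below the 2.63 (2.35–2.93) of the HSP90 and HSP70 genes. Its interval overlapped that of the co-chaperone group, 1.95 (1.73–2.20). Dnaja2 had 2.03 (1.03–3.61) and Dnaja1 1.86 (1.21–2.73). Intervals of Dnajb6 with 1.70 (0.807–3.19) and Dnajb1 with 1.504 (0.641–3.01) included 1. Cytosolic members below 1.5-fold were Dnajc7 with 0.814 (0.296–1.79) and St13 with 0.727 (0.148–2.16), from 6 and 3 UMIs in the class. Cdc37 and Bag1 passed 1.5-fold with intervals that included 1.

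All 7 measured chaperonin subunits were higher, from 1.90 (1.24–2.79) for Cct4 to 2.85 (1.84–4.25) for Cct3, each with an interval above 1. In the ER, 5 of 7 members passed 1.5-fold. Pdia6 had 2.48 (1.26–4.42), Calr 2.42 (1.76–3.26), Pdia4 2.39 (1.01–4.85), Pdia3 2.10 (1.10–3.65) and Hspa5 2.01 (1.31–2.96). Hsp90b1 with 1.41 (0.699–2.56) and Canx with 1.26 (0.539–2.52) did not pass. When other cells were weighted to the depth of the class, the log2 ratios were 2.12 for mitochondrial, 1.20 for chaperonin, 1.08 for cytosolic and 0.95 for ER members. Within the deepest stratum the ratios were 4.53, 2.37, 2.16 and 2.02 in the same order. The next stratum held 3 class cells, with 1.64, 1.27, 1.59 and 0.9999, and the one below it 1 class cell, with 4.98, 2.52, 1.57 and 0.876. The ER values of those 4 cells rest on 4 and 1 UMIs, and the mitochondrial values on 4 and 3. These are too few to show whether either level was higher outside the deepest stratum. For each gene, leaving out the cell with its most UMIs left Hspd1 at 4.87, Hsp90aa1 at 4.54 and Hspa8 at 1.76.

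**Figure D3:**
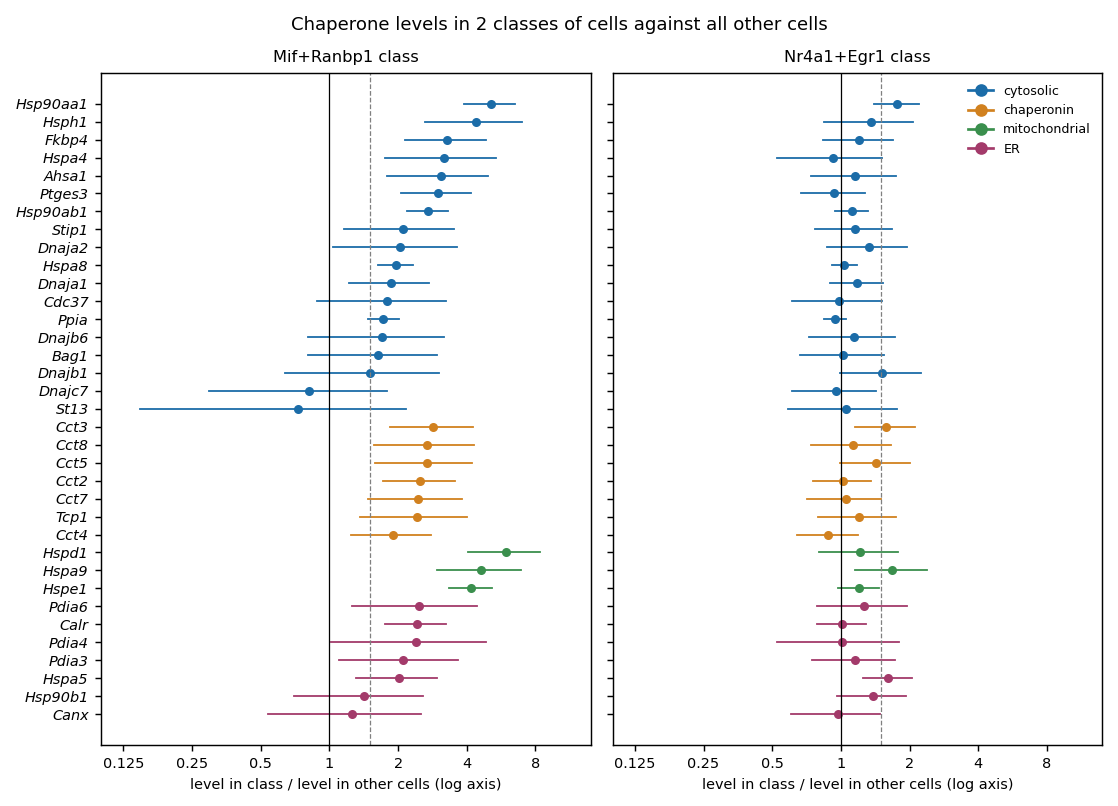
Ratio of the pooled level in each class to that in all other cells for the 35 measured chaperones, on a log axis, with exact 95% intervals for counting error. The left panel shows the 22 cells with Mif and Ranbp1 and the right panel the 152 cells with Nr4a1 or Egr1; the dashed line marks 1.5-fold. Hspd1 has the highest ratio on the left, 5.92, and Hsp90aa1 on the right, 1.75.

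The pooled level of Treg markers was lower in the same 22 cells. The 6 markers summed to 1512 CPM in the class and 2625 CPM in the other cells. Foxp3 had a ratio of 0.692 (0.367–1.19) and was seen in 6 of the 22 cells, Il2ra, the high-affinity interleukin-2 receptor chain, had 0.351 (0.168–0.647) and Ikzf2 (Helios) 0.626 (0.381–0.970). The 6 pan-T markers summed to 2090 CPM against 2452 CPM, and 20 of the 22 cells had a UMI of at least 1 of them. Myeloid markers summed to 99.5 CPM in the class and 632 CPM outside it, with Lyz2, Tyrobp, S100a8, S100a9 and Csf1r at 0 in the class. Each of these 5 was seen in at most 1.82% of other cells, so a 0 in 22 cells says little. By cells, 5 of the 22, 22.7%, had a UMI of a myeloid marker, against 12.9% of the other cells. B cell markers summed to 219 CPM on both sides, from 2 cells of the class. The class shared 1 cell with the 15 cycling cells. No doublet caller was run, and the part of doublets in these deep cells was not tested.

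Other folding genes outside the members were read from 4 fixed lists, which were drawn up with earlier results of these data known. Of 58 measured, 33 were at least 1.5-fold higher in the class and 5 lower, with a median log2 ratio of 0.83, against the 29.7% and 15.8% of all measured genes. Prefoldin, which passes chains to TRiC, had 4 of 6 higher, with Pfdn2 at 3.72 (2.04–6.31) and Pfdn4 at 4.19 (1.30–10.4). Of the other mitochondrial chaperones 6 of 9 were higher. Grpel1, the exchange factor of Hspa9, had 4.38 (1.70–9.53) and Timm44, which ties Hspa9 to the import channel, 3.88 (1.21–9.63). Of the other cytosolic genes 14 of 21 were higher, with Nudc at 4.99 (2.71–8.55), the cyclophilin Ppid at 3.32 (1.40–6.79) and Dnajc2 at 3.32 (1.62–6.12). ER folding and stress genes had 9 of 22 higher and 3 lower, nearer to those shares than the other lists, and Creld2 and Txndc5 were those with intervals above 1. Creld2 had 5.78 (1.48–16.5), from 4 UMIs in the class.

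Cells with at least 1 UMI of Nr4a1 and Egr1, immediate early genes known to be induced by T cell receptor signals, differed little in chaperones. The class had 152 cells with a median of 1072 UMIs, against 965 in the others. Chaperones took 1.09% of its UMIs against 0.978%, and the median share per cell was 0.890% in the class and 0.894% outside it. Ratios were 1.28 (1.09–1.501) for mitochondrial, 1.21 (1.07–1.38) for ER, 1.14 (1.003–1.29) for chaperonin and 1.07 (1.01–1.14) for cytosolic members. Of the 35 members 5 were at least 1.5-fold higher and 0 lower, while 17.9% of all measured genes were higher and 16.6% lower. The count of higher members was near the background, while that of lower members was below it. Among 4850 genes with at least 5 UMIs expected in the class, 11.5% were higher and 12.3% lower. Ratios above 1 were found for 80.0% of members and 52.3% of all measured genes. Without ribosomal UMIs in the totals, these shares were 62.9% and 47.4%. The cytosolic log2 ratio turned from 0.10 to -0.010 when 2 UMIs were required, and the mitochondrial one from 0.36 to -0.13 when cells were thinned to 500 UMIs before classing. Their median log2 ratio was 0.21, against 0.03 over all genes.

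Those 5 genes were Hsp90aa1, Hspa9, Hspa5, Cct3 and Dnajb1. Hsp90aa1 had 487 CPM in the class and 278 CPM outside it, a ratio of 1.75 (1.39–2.19), with at most 12 UMIs in 1 class cell and 8 in 1 other cell. Hspa9 had 1.68 (1.15–2.39), Hspa5 1.61 (1.25–2.04) and Cct3 1.57 (1.16–2.11). The interval of Dnajb1, 1.51 (0.988–2.24), included 1. Hspa5 was seen in 36.8% of class cells and 22.2% of the others. The most abundant members lay near 1, with Ppia at 0.945 (0.845–1.05), Hspa8 at 1.03 (0.910–1.17) and Hsp90ab1 at 1.11 (0.943–1.31).

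The classes shared 3 cells, of which 2 had the highest chaperone shares in either class and 1 the lowest share in the Mif and Ranbp1 class. Without the cells with Mif and Ranbp1, 3 members were at 1.5-fold: Hsp90aa1 at 1.51 (1.16–1.95), Dnajb1 at 1.55 (1.004–2.31) and Hspa5 at 1.53 (1.18–1.97). Hspa9 then had 1.34 (0.853–2.01) and Cct3 1.44 (1.03–1.97). The Hsp90aa1 ratio rests on 70 UMIs in the class. The highest Hsp90aa1 count of a cell outside the Mif and Ranbp1 class was among them, and the ratio without that cell was not computed. By compartment, without the cells with Mif and Ranbp1, the ER ratio was 1.22 (1.07–1.39). The intervals of the mitochondrial ratio, 1.14 (0.948–1.36), the chaperonin ratio, 1.08 (0.947–1.23), and the cytosolic ratio, 1.03 (0.967–1.09), included 1. Cells with Mif and Ranbp1 but neither Nr4a1 nor Egr1, 19 in number, had 21890 CPM of chaperones, the 149 cells with Nr4a1 or Egr1 alone 10160 CPM and the 1884 cells of neither class 9520 CPM.

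Myeloid markers moved with the Nr4a1 and Egr1 class. They summed to 2135 CPM in it and 476 CPM outside it, with all 7 markers detected in the class, and 17 of its 152 cells were among the 129 marked cells. Lyz2 gave 131 UMIs in 9 class cells and 17 UMIs elsewhere. Without the marked cells, Hsp90aa1 had 1.87 (1.47–2.36), Hspa9 1.94 (1.32–2.79), Hspa5 1.69 (1.29–2.18), Dnajb1 1.64 (1.05–2.46) and Cct3 1.63 (1.18–2.21). Without the marked cells and the cells with Mif and Ranbp1, the values were 1.60 (1.21–2.08), 1.54 (0.974–2.35), 1.61 (1.21–2.10), 1.69 (1.08–2.56) and 1.48 (1.04–2.06) in the same order. The set at 1.5-fold changed with the cells used. Without the marked cells it held 6 members, with Cct5 at 1.58 (1.08–2.24). Without the marked cells and those with Mif and Ranbp1, Stip1 was at 1.506 (1.002–2.194) and Cct5 at 1.36 (0.895–2.01). When ribosomal UMIs were left out of the totals, 3 members were at 1.5-fold. Ribosomal genes took 32.4% of the UMIs of the class and 35.7% of the others. Of 58 other folding genes, 10 were higher and 10 lower, near the 17.9% and 16.6% of all measured genes. Eif2ak3, the ER stress kinase PERK, was the 1 with an interval clear of 1, at 5.62 (2.06–14.1) from 8 UMIs in the class.

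Compartments differed from one another in some of 5 further classes of cells, set by UMIs of other fixed gene lists. Each class was set against all its other cells, so the comparison cells overlap and the ratios are given side by side. In 80 cells with B cell markers, whose Treg markers summed to 306 CPM against 2694 CPM, the ER ratio was 1.67 (1.42–1.95), the chaperonin ratio 1.05 (0.863–1.25) and the cytosolic ratio 0.899 (0.821–0.982). There 5 of 7 ER members were at least 1.5-fold higher: Pdia4 with 2.95 (1.64–4.97), Pdia6 with 2.63 (1.60–4.14), Pdia3 with 1.82 (1.08–2.90), Hsp90b1 with 1.78 (1.11–2.72) and Calr with 1.60 (1.19–2.12). Over all 35 members, 7 were higher and 4 lower, against 22.7% and 20.2% of all measured genes. Hspa8 was lower there, at 0.661 (0.523–0.824), and Dnajc7 higher, at 2.47 (1.62–3.62). How much of a B-marked droplet's RNA came from a T cell was not tested.

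Cells with S100a4 or S100a6, genes of small calcium-binding proteins, numbered 170. Their ER ratio was 1.29 (1.15–1.45), with Pdia6 at 1.88 (1.28–2.70) and Canx at 1.60 (1.11–2.24). Their chaperonin ratio was 0.900 (0.789–1.02), with Cct7 at 0.487 (0.285–0.781). Of the 7 ER members, 2 were at least 1.5-fold higher and 1 was lower. Over all 35 members, 2 were higher and 4 lower, against 1793 and 1184 of the 7804 measured genes. Thinning before classing gave an ER ratio of 1.22 (0.976–1.503). Myeloid markers moved with this class as well: all 7 were detected, and they summed to 4182 CPM in it and 239 CPM outside it, with Lyz2 at 188 (89.1–477) times the level of other cells. Without the marked cells, of which the class held 26, the ER ratio was 1.38 (1.21–1.56), Pdia6 had 1.96 (1.27–2.93), Canx 1.83 (1.25–2.60) and Cct7 0.505 (0.285–0.832). Pdia4 then had 0.699 (0.295–1.42), from 8 UMIs in the class. The ribosomal share of the class was 26.7% against 36.4% in other cells, and its median log2 ratio over all genes was 0.13. Without ribosomal UMIs in the totals, 1 ER member was higher and 1 lower, against 1148 and 1683 of 7723 genes. Cells with Ly6c1 or Ly6c2, genes of surface proteins of the Ly6 family, numbered 369. Their mitochondrial ratio was 0.777 (0.672–0.895), the ER ratio 0.885 (0.796–0.981) and the chaperonin ratio 0.894 (0.809–0.987). The cytosolic interval, 0.971 (0.929–1.01), included 1. Hspd1 had 0.589 (0.397–0.848), Hsph1 0.536 (0.328–0.836) and Hsp90aa1 0.679 (0.532–0.858). Over all 35 members, 0 were at least 1.5-fold higher and 2 lower, against 477 and 1475 of the 7804 measured genes. When cells were thinned to 500 UMIs before classing, the mitochondrial ratio of that class was 1.003 (0.786–1.27), so the lower level was not seen there. The ER ratio was then 0.969 (0.810–1.15) and the chaperonin ratio 0.961 (0.808–1.14). The 15 cycling cells were deep, with a median of 2511 UMIs against 972. Their cytosolic ratio was 1.32 (1.17–1.48), with Ppia at 1.79 (1.49–2.14), and the intervals of the other 3 compartments included 1. Within the cytosolic members, the co-chaperone group, which holds Ppia, had 1.574 (1.342–1.835). The intervals of the HSP90 and HSP70 genes, 1.13 (0.925–1.37), and of the J-domain genes, 1.007 (0.667–1.46), included 1. Their mitochondrial ratio, 0.654 (0.380–1.05), rested on 17 UMIs. Within the deepest stratum the cytosolic ratio was 1.25. The 362 cells with interferon-response genes had an interval that included 1 in every compartment, and Hspa9 there had 0.602 (0.407–0.866).

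**Figure D4:**
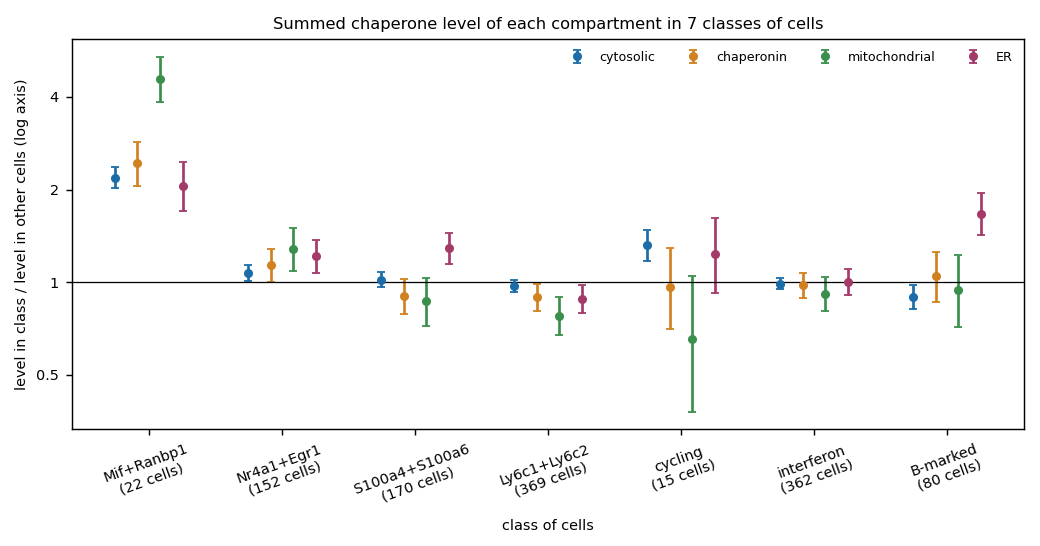
Ratio of the summed chaperone level of each compartment in 7 classes of cells to that in all other cells, on a log axis, with exact 95% intervals for counting error and colours for the compartments. The mitochondrial ratio of 4.56 in the Mif and Ranbp1 class is the highest, and the ER ratio leads in the B-marked and the S100a4 and S100a6 classes.

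Co-variation was measured as the Pearson correlation, over the 2055 cells, of counts corrected for depth. All cells share 1 library, and at this sparsity values are small. The 595 pairs of 35 members had a mean r of 0.029, and 80.0% of pairs were positive. For 4652775 pairs of 3051 non-ribosomal genes with at least 100 UMIs, the mean r was 0.0016 and 50.5% were positive. These genes were not matched to the members in abundance, and the part of abundance in the difference was not tested. Within compartments the mean r was 0.12 for the 3 mitochondrial pairs, 0.060 for the 21 ER pairs, 0.028 for the 153 cytosolic pairs and 0.026 for the 21 chaperonin pairs. Over the 397 pairs between compartments it was 0.028.

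Hsp90aa1 stood at the centre of the strongest pairs. Its r was 0.18 with Hspd1, 0.16 with Hsp90ab1, 0.15 with Hspa9, 0.14 with Hspe1, 0.14 with Fkbp4 and 0.13 with Ptges3. These values include the cells with Mif and Ranbp1, in which all of these genes were higher, and no pair was computed without those cells. Without the cells of either class, r between the cytosolic and mitochondrial sums was 0.13 in place of 0.27. Within the ER, Pdia6 and Calr had 0.14, Hspa5 and Calr 0.13, and Hsp90b1 and Pdia6 0.13. Pdia6 was the ER member closest to the sum of the other ER members, with 0.20. Dnajc7, Dnajb6, Hspa4 and Dnajb1 had at most 0.030 with the rest of the cytosolic group, and the J-domain genes Dnaja1 and Dnaja2 0.098 and 0.057. Dnajb1 and Hspa5 had the highest values with the sum of Nr4a1 and Egr1, 0.091 and 0.092.

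**Figure D5:**
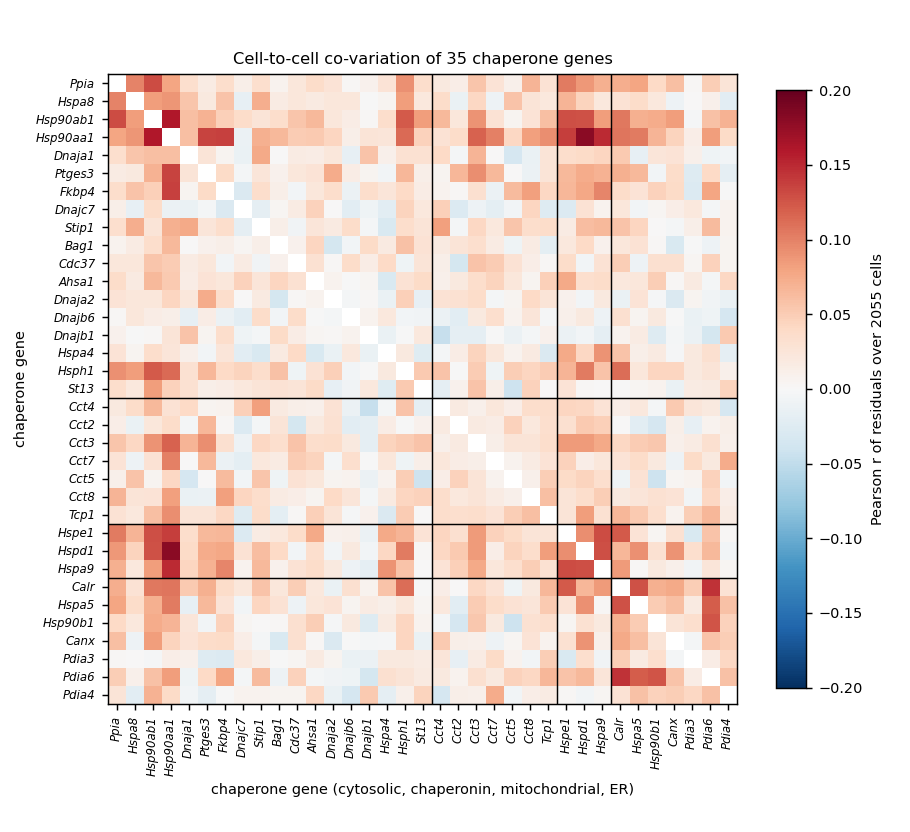
Pearson correlation over 2055 cells of depth-corrected counts for each pair of 35 chaperone genes, ordered by compartment and level, with colours from -0.2 to 0.2 and black lines between compartments. The row of Hsp90aa1 and the blocks of mitochondrial and ER genes hold the highest values, up to 0.18.

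For compartment sums r was 0.27 between cytosolic and mitochondrial, 0.20 between cytosolic and ER, 0.18 between cytosolic and chaperonin, 0.16 between chaperonin and mitochondrial, 0.13 between mitochondrial and ER, and 0.099 between chaperonin and ER members. The sum of Mif and Ranbp1 went with mitochondrial members at 0.28, cytosolic at 0.25, chaperonin at 0.19 and ER members at 0.12, while the sum of Nr4a1 and Egr1 had between -0.010 and 0.058. With ribosomal protein genes, ER members had -0.21, cytosolic members -0.11, chaperonin members -0.039 and mitochondrial members 0.017. Ribosomal UMIs are part of the totals used to correct for depth, and their part in these values was not tested. The cells of either class were then left out, which kept the 1884 cells of neither class. The mean r within the mitochondrial group was 0.037 in place of 0.12, and that within the ER group was 0.054 in place of 0.060. Within the cytosolic group it was 0.016 in place of 0.028, within the chaperonin 0.017 in place of 0.026, and between compartments 0.013 in place of 0.028. After thinning every cell to 500 UMIs, the mitochondrial and ER values were 0.039 and 0.017. Weak values at this depth are a description of these cells only.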

How the data were processed

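Single GFP+ CD4+ T cells of 1 inDrops library were measured. The authors deposited UMI counts per gene and cell, whole numbers with no normalization. Per the submitters' processing notes, TopHat2, SAMtools and the mm10 build were used; no source used here gives their versions, their roles or the gene annotation. Every column of the table was matched to the library by the shared start of its name.

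Cells with at least 500 UMIs were kept (2055 of 2239; median 974 UMIs). Levels were pooled as UMIs per 1000000, with exact 95% Poisson intervals, and ratios had exact conditional Clopper-Pearson intervals. A gene was measured with at least 20 UMIs and called at 1.5-fold. A side with 0 UMIs was read against a floor of 3 UMIs. No test was run, since there is 1 library. Depth-corrected counts were analytic Pearson residuals with an overdispersion of 100. Doublets were kept and no caller was run. Promoter sequences are from RefSeq (GRCm38.p6), coordinates from the same build, and copies from GENCODE transcripts. Python 3.11.15, NumPy 2.4.6, SciPy 1.17.1 and pandas 2.3.3 were used, and the ratio and correlation steps were tested on simulated data.

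The members, classes and gene lists were chosen with earlier results of these data known. Named genes are all 38 members, the class genes, listed markers and members of 4 lists of other folding genes past 1.5-fold. Alternatives to depth limits, thinning, class rules, totals, weighting, marked cells and call thresholds were computed. Protein sequences were not used here.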

Additional observations from a re-analysis of the deposited data

Results flagged for a closer look

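Chaperones were also present in cells that none of the reported comparisons uses. The 184 cells set aside for having under 500 UMIs held 633 chaperone UMIs among 70683, or 0.896% (exact binomial 95% interval 0.827 to 0.968%). A count of 0 there would have allowed at most 0.00424%. The kept cells had 0.988%.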

How the results depend on the processing

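Of 216 recomputed values 150 stayed within the interval or within 1.5 times the count of the reported one, 64 moved and 2 reversed; causes were not tested. No paired analysis was possible because there is 1 library.

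For the Mif and Ranbp1 class, the compartment log2 ratios over all depths were above 0 in each alternative. Depth strata were added after seeing the data. Outside the deepest stratum, in 4 class cells, the ER ratios were 0.9999 and 0.876, from 4 and 1 UMIs, too few to give a direction. Thinning before classing left 1 cell and gave 0.90 for cytosolic, 1.63 for chaperonin, 1.61 for mitochondrial and 0.72 for ER members, each with an interval that included a ratio of 1, and 7 members higher. A minimum of 2 UMIs gave 0.83 for cytosolic, 0.93 for chaperonin and 1.69 for mitochondrial members. Mif alone at 2 UMIs gave 0.90, 1.04, 1.79 and 0.74 in the order cytosolic, chaperonin, mitochondrial, ER, with 1 member lower, and a minimum of 4 UMIs also gave 1 lower. Ranbp1 alone gave 0.36, 0.61, 0.85 and 0.60, with 14 higher. Leaving out the top cell of each gene gave 0.94 for cytosolic and 1.91 for mitochondrial members, and levels on thinned UMIs with the class on all UMIs, chosen after seeing the data, gave 1.59 for the chaperonin.

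For the Nr4a1 and Egr1 class, 2 UMIs gave a cytosolic log2 ratio of -0.010, the reverse of the reported direction, and 0.10 for mitochondrial members. Thinning before classing reversed the mitochondrial ratio to -0.13, with 3 members lower. Egr1 alone gave 0.087 for mitochondrial members, 3 members higher and 1 lower. The count of higher members was 3 without ribosomal UMIs, 3 without the top cell of each gene, 3 without the Mif and Ranbp1 cells (added after seeing the data) and 0 at 2-fold. Levels on thinned UMIs gave 0.51 for ER members.

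Correlations between compartment sums, in the order cytosolic-chaperonin, cytosolic-mitochondrial, cytosolic-ER, chaperonin-mitochondrial and mitochondrial-ER, were 0.26, 0.37, 0.27, 0.27 and 0.21 in cells with at least 1000 UMIs, 0.11, 0.15, 0.14, 0.061 and 0.065 on log2 values, and 0.10, 0.073, 0.11, 0.039 and 0.041 after thinning to 500 UMIs. In the 1884 cells left without the cells of either class they were 0.099 for cytosolic-chaperonin, 0.13 for cytosolic-mitochondrial, 0.025 for chaperonin-mitochondrial and 0.066 for mitochondrial-ER. Chaperonin-ER was 0.055 after thinning and 0.052 without the cells of either class.

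Without ribosomal UMIs in the total, levels were 10150 CPM for cytosolic, 2094 for chaperonin, 1134 for mitochondrial and 1925 for ER members. In cells with at least 1000 UMIs they were 6732, 1462 and 810 CPM for cytosolic, chaperonin and mitochondrial members, and as means over cells 6412, 1300 and 685 CPM. Without B cell or myeloid marked cells, ER members stood at 1195 CPM.

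At a median of 974 UMIs most members are missed in most cells, so a member at 0 in a cell was not shown to be absent there. Ratios in the 22 cells rest on 3 to 172 UMIs per member. Intervals cover counting error and no variation between mice or libraries.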
